A study of Mus musculus with 40 samples.

Results

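Neurotrophin signalling was followed in 5 genes, chosen by their symbols in the deposited table: the ligands Bdnf and Ntf3 and the receptors Ntrk2, Ntrk3 and Ngfr. They are 5 of 23322 named genes, and each was found once. Neurotrophins are secreted growth factors that neurons use to support survival, dendrites and synapses. Bdnf encodes brain-derived neurotrophic factor, whose receptor kinase TrkB is the product of Ntrk2. Ntf3 encodes neurotrophin-3, whose main receptor kinase TrkC is the product of Ntrk3. Ngfr encodes p75, a receptor without kinase activity that binds every neurotrophin and its precursor. In the striatum most BDNF protein is known to arrive in axons of cortical and midbrain neurons, TrkB is made by neurons and, in a truncated form, by astrocytes, and p75 is best known from cholinergic neurons of the basal forebrain.

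The mice were C57BL/6J, and RNA came from left and right punches of the nucleus accumbens, the ventral part of the striatum, taken after a withdrawal whose length the labels do not give. There were 40 mice in 8 groups of 5, with 1 library per mouse. Intact males and intact females received saline or cocaine, and so did ovariectomized females carrying placebo or estradiol. The cocaine dose was 10 mg/kg daily on the first and last of 7 days and 20 mg/kg daily in between. Ages are not given in the sources used here. Intact mice carry the animal numbers 61 to 80 and ovariectomized mice the numbers 121 to 140, so ovary removal and cohort cannot be told apart where the sets are compared.

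In the mouse genome (build mm10, GENCODE annotation) Bdnf lies on the plus strand of chromosome 2 from 109674700 to 109727007, and Ntrk2 on the plus strand of chromosome 13 from 58806569 to 59133970. On the minus strand lie Ntf3 (chromosome 6, 126101412 to 126166910), Ntrk3 (chromosome 7, 78175959 to 78738012) and Ngfr (chromosome 11, 95568818 to 95587735). All are protein-coding. The table gives 1 value per gene, so transcripts from different starts or splice forms, such as full-length and truncated Ntrk2, are not told apart, and which of them the kit's amplicons cover is not given in the sources used here. Exons of Bdnf overlap Gm45346 on the opposite strand, and whether reads were counted by strand is not given in the sources used here, so reads of the pair cannot be told apart.

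Bdnf has several promoters, each feeding its own first exon into a shared coding exon. RefSeq (GRCm38.p6) gives 7 start windows of 300 bases for it, from 250 bases before to 50 after the start. 3 of them, all on the plus strand, are printed to show starts that the single Bdnf value does not tell apart: the first start, the start in front of exon IV, known for responding to neuronal calcium, and the last start. Capitals mark TCACGTCA, a variant of the cyclic AMP response element.
Bdnf window 1 (chr2:109674450-109674749): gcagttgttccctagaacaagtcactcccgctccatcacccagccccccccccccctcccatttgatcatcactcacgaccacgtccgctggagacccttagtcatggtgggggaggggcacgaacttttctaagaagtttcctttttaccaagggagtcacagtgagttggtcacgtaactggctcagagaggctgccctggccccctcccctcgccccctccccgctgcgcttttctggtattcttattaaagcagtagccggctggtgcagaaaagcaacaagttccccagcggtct
Bdnf window 3 (chr2:109692186-109692485): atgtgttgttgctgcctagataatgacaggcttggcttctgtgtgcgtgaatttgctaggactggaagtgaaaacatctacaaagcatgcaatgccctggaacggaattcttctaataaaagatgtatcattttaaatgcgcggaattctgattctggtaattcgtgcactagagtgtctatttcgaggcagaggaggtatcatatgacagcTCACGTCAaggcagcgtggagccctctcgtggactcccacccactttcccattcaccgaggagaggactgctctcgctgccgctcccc
Bdnf window 7 (chr2:109722671-109722970): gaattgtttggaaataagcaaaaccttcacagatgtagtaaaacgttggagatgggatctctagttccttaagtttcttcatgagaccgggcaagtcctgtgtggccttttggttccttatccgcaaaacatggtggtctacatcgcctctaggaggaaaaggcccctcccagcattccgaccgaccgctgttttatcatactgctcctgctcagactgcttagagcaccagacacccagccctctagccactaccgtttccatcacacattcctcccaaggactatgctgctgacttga
The capital letters sit 38 bases before the annotated start. Searched on both strands, TCACGTCA was in 1 of the 7 Bdnf windows, in 0 of the 4 windows matched to Ntf3, Ntrk2 and Ngfr, and in 0.441% of 32851 mouse windows of this length. The palindrome TGACGTCA was in 1.79% of them and in 0 of these 11. Such a match describes letters only.

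All values are called TPM here, transcripts per 1000000, because each library adds up to that total. Whether and how gene length entered them is not given in the sources used here. Every library held the 12 striatal projection neuron genes of the marker list, at a sum of 2453 to 8023 TPM, with Ppp1r1b (DARPP-32) at 678 to 2328 TPM. In 4 libraries (placebo saline 137 and estradiol cocaine 126 and 134 of the ovariectomized mice, and male cocaine 67) ribosomal protein genes took 19.5% to 31.6% of the TPM, against 7.60% to 17.9% in the other 36. Their median correlation with the rest was 0.892 to 0.928, against 0.943 to 0.968. The library labelled male cocaine 69 held Xist, the RNA of the inactive X, at 237 TPM, against 0.138 to 8.02 in the other 9 male libraries and 80.6 to 308 in the 10 intact female ones. Its Y-linked Ddx3y was at 0.318 TPM, against 13.5 to 53.4 in the other males, and the description of that sample carries a male saline code. Both its sex and its treatment are thus in doubt. It was kept under its title. The printed differences of members from the main fit that use the male cocaine group are also given without it. Values under other settings, such as covariates, scaling or other libraries left out, keep it. Nothing says that mice came from separate cages or litters, so p-values measure only the spread between these libraries.

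Groups were compared with limma on log2(TPM + 0.5) over the 15196 genes that reached 1 TPM in at least 5 libraries, and all 5 members passed that filter. In 13 comparisons 0 of the 5 members reached an adjusted p of 0.05, and 0 did in the test for any difference among the 8 groups. Over all tested genes the calls were also 0% in those comparisons, except 0.0329% for females against males in saline and again in cocaine mice, and 0.224% for the test over 8 groups. Of the 65 member tests, 8 had an unadjusted p under 0.05. Of these 8, 2 came from a comparison where 41.7% of all tested genes had such a p, and 2 where 31.3% did. The others were 1 each where 19.3%, 15.7%, 1.36% and 0.954% did. The count of 8 is thus not read as a result about the members. No adjusted p of a member was below 0.0946. In the test over 8 groups 23.9% of all genes had an unadjusted p under 0.05, among them Ntrk3 (unadjusted p = 0.00903, adjusted p = 0.149, limma). In the order of group means, neighbouring groups differed by less than the larger of their SDs for each member.

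**Figure D1:**
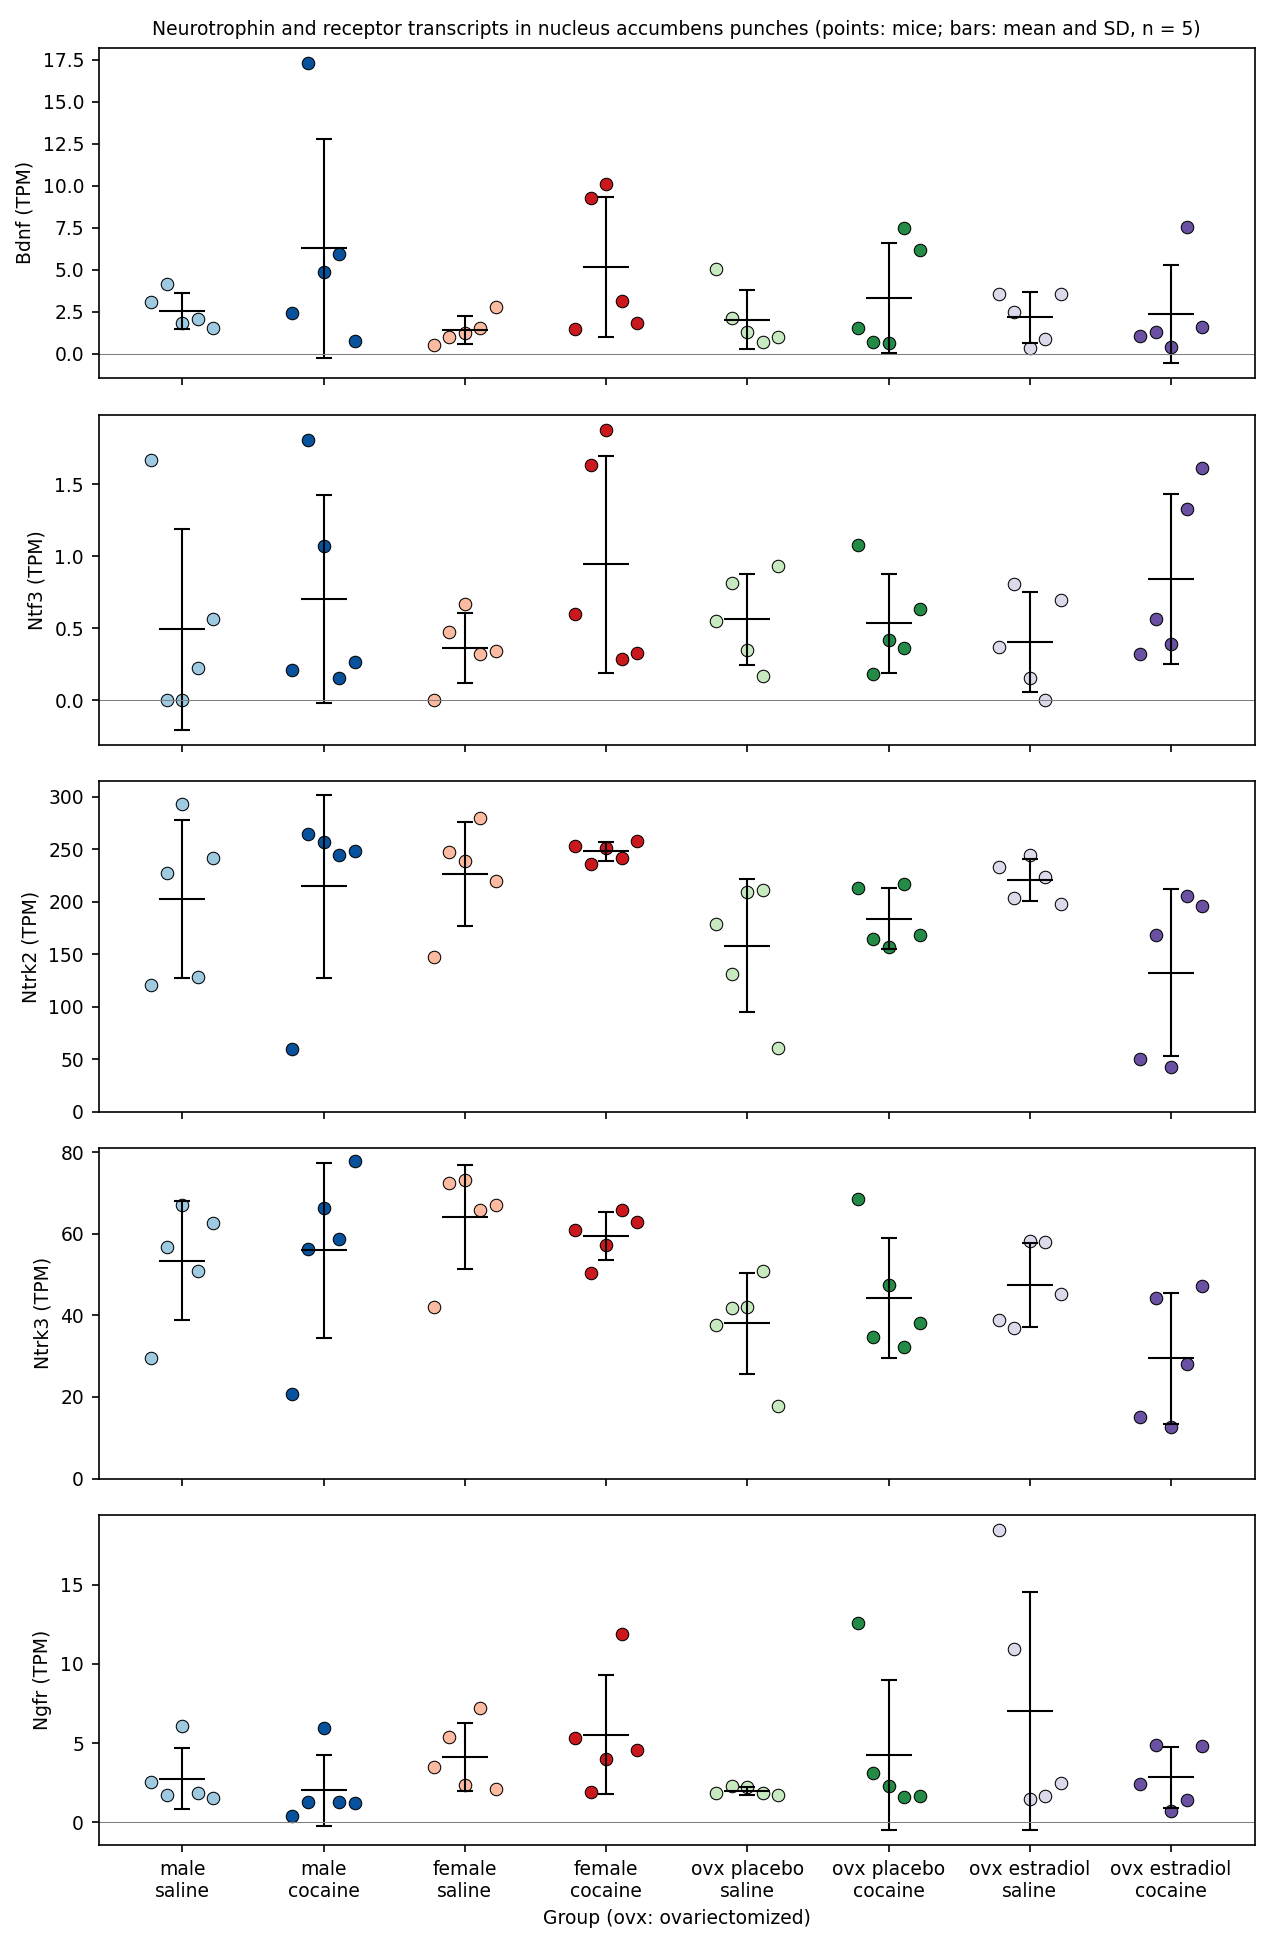
TPM of Bdnf, Ntf3, Ntrk2, Ntrk3 and Ngfr (vertical axes, from the top) in the 8 groups (horizontal axis), with 1 point per mouse and a bar for the mean and SD (n = 5). Bdnf spreads most in cocaine groups, up to 17.3 TPM, and Ntrk2 and Ntrk3 hold a few low points in 3 groups, down to 42.4 and 12.7 TPM.

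Bdnf was a low-abundance transcript, with a median of 1.84 TPM over the 40 libraries and a range of 0.322 to 17.3. In intact females Bdnf was at 0.518, 0.977, 1.27, 1.51 and 2.80 TPM after saline. After cocaine the intact females held 1.50, 1.85, 3.13, 9.26 and 10.1 TPM. 3 of the 5 cocaine values lay above every saline value, and the groups overlapped. The means were 5.17 ± 4.18 and 1.41 ± 0.857 TPM (SD, n = 5 each), and the log2 difference was 1.33 ± 0.62 (SE, 95% interval 0.08 to 2.58), with an unadjusted p of 0.0381 and an adjusted p of 1 (limma). Of all tested genes, 0.954% had an unadjusted p under 0.05 in this comparison, 0.586% in the higher direction. Leaving out single libraries moved the difference between 1.02 (unadjusted p = 0.125, limma, without female cocaine 72) and 1.62 (unadjusted p = 0.0173, without female cocaine 70) in limma.

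In intact males Bdnf was at 1.54, 1.83, 2.10, 3.11 and 4.13 TPM after saline. After cocaine the values were 0.768, 2.46, 4.90, 5.95 and 17.3 TPM, 4.90 being the library labelled male cocaine 69. The cocaine group thus held both the lowest and the 3 highest male values. The log2 difference was 0.70 ± 0.62 (interval -0.55 to 1.95), 0.65 without the library labelled male cocaine 69 and 0.22 without male cocaine 68, the library at 17.3 TPM. The cocaine response of females minus that of males was 0.63 ± 0.88 (interval -1.14 to 2.40), and 0.68 without the library labelled male cocaine 69. In that test 0.665% of all genes had an unadjusted p under 0.05, and Bdnf did not (unadjusted p = 0.476, limma).

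In ovariectomized mice with placebo, Bdnf was at 0.674, 0.996, 1.30, 2.14 and 5.04 TPM after saline. After cocaine this surgery group held 0.640, 0.676, 1.55, 6.19 and 7.51 TPM, with 2 values above every saline one and 1 below. The difference was 0.33 ± 0.62 (interval -0.92 to 1.59). With estradiol, Bdnf was at 0.322, 0.906, 2.50, 3.54 and 3.57 TPM after saline and at 0.393, 1.08, 1.28, 1.57 and 7.55 TPM after cocaine. The difference was -0.09 ± 0.62 (interval -1.34 to 1.17), and a single cocaine library (136) exceeded the saline range. Averaged over the 4 conditions, cocaine minus saline was 0.57 ± 0.31 (interval -0.06 to 1.20, unadjusted p = 0.0738, limma), where 1.1% of all genes had an unadjusted p under 0.05, and 0.56 without the library labelled male cocaine 69. Without male cocaine 76, at 0.768 TPM, the average was 0.69 (unadjusted p = 0.0270, limma), and without ovariectomized estradiol cocaine 136 it was 0.45 (unadjusted p = 0.140, limma). Between females and males Bdnf differed by -0.71 ± 0.62 after saline and -0.08 ± 0.62 after cocaine (-0.03 without the library labelled male cocaine 69). Estradiol minus placebo was 0.06 ± 0.62 after saline and -0.36 ± 0.62 after cocaine, and ovariectomized placebo minus intact females was 0.28 ± 0.62 and -0.72 ± 0.62. The 95% intervals of these differences all held 0.

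Bdnf varied between libraries together with transcripts of cortical excitatory neurons, whose cell bodies lie outside the accumbens. The list holds 12 genes, among them Slc17a7 (the vesicular glutamate transporter VGLUT1), Neurod6, Tbr1 and Nrn1, and does not hold Bdnf. Its summed level ran from 14.6 to 1053 TPM. In the intact females after cocaine it was 1053 and 687 TPM in the libraries with 9.26 and 10.1 TPM of Bdnf, and 70.0 to 87.1 TPM in the other 3. In the intact females after saline it was 30.6 to 228 TPM, and 228 TPM belonged to the library with the highest Bdnf.

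Over 40 libraries on the log2 scale, Bdnf and the cortical sum had a Pearson r of 0.897 and a Spearman rho of 0.889 (permutation p of 1e-05 each, the smallest that 100000 resamples can give, and adjusted p of 5e-05 and 7.86e-05 over the 55 relations computed between members and lists or library measures). Without the 2 libraries farthest from the median cortical sum r was 0.890. It was 0.885 in the 20 intact mice, 0.910 in the 20 ovariectomized mice and 0.895 after each group's mean was taken off. All libraries share 1 sequencing lane, and TPM adds up to the same total in each, so a rise of some genes lowers the share of others. Bdnf and the striatal projection neuron list had an r of -0.495 and a rho of -0.599 (permutation p = 0.00114 and 0.000100, adjusted 0.00301 and 0.000500).

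With the cortical sum as a covariate, an alternative chosen after seeing the data, the Bdnf difference of cocaine minus saline in intact females was 0.44 (unadjusted p = 0.175, limma) in place of 1.33. In males it was 0.40 in place of 0.70, with placebo 0.36 in place of 0.33, and with estradiol 0.07 in place of -0.09. Females minus males after saline was 0.20 (unadjusted p = 0.539, limma) in place of -0.71. On average over the 4 conditions it was 0.31 (unadjusted p = 0.0487, adjusted p = 0.666, limma) in place of 0.57. The fit with this covariate keeps the library labelled male cocaine 69 and was not repeated without it. In bulk tissue, more cells of a type in the punch and more RNA per cell cannot be told apart.

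**Figure D2:**
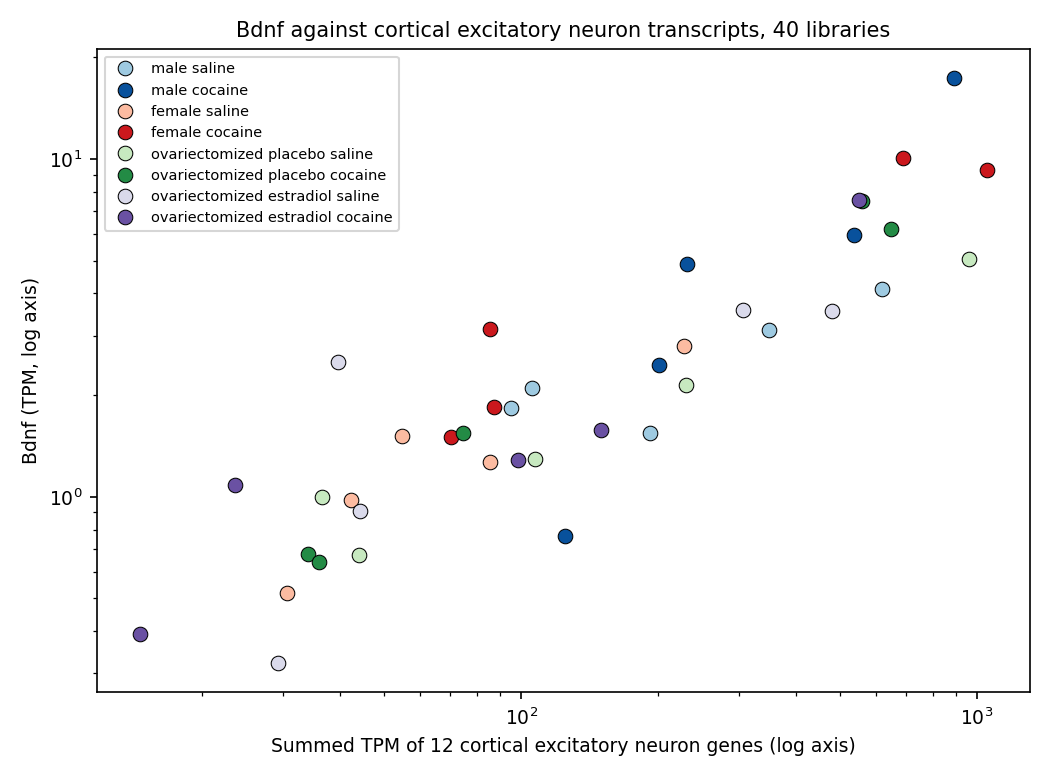
Bdnf (vertical log axis, TPM) against the summed TPM of 12 cortical excitatory neuron genes (horizontal log axis), with 1 point per library coloured by group. Points rise together from 14.6 to 1053 TPM on the horizontal axis in libraries of all 8 groups (r = 0.897 on the log2 scale).

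Ntf3 was the scarcest member, with a median of 0.403 TPM and a range from listed at 0 in 4 libraries to 1.88 TPM. It reached 1 TPM in 8 libraries of 5 groups. Those values were 1.67 TPM in 1 male saline library, 1.07 TPM in the library labelled male cocaine 69, 1.81 TPM in male cocaine 68, 1.63 and 1.88 TPM in female cocaine libraries, 1.08 TPM with placebo and cocaine, and 1.33 and 1.61 TPM with estradiol and cocaine. Ntf3 passed the filter of 1 TPM in at least 5 libraries only through libraries of cocaine groups. How many genes did so was not counted. The counts, cocaine differences and p-values of Ntf3 that follow are therefore no test of cocaine. Of the 8, 7 carry a cocaine title, and 6 of 7 without the library labelled male cocaine 69. The cocaine differences were 0.32 ± 0.40 in males (0.18 without that library), 0.64 ± 0.40 in intact females, -0.04 ± 0.40 with placebo and 0.55 ± 0.40 with estradiol, and each interval held 0. The average over conditions was 0.37 ± 0.20 (interval -0.04 to 0.78, unadjusted p = 0.0728, limma), 0.33 without the library labelled male cocaine 69, and from 0.30 without male cocaine 68 to 0.46 (unadjusted p = 0.0217, limma) without male saline 61. At this level the size of the difference depends on the pseudocount. The average was 0.73 (unadjusted p = 0.0531, limma) with 0.1 and 0.25 (unadjusted p = 0.0769, limma) with 1. All 4 libraries listed at 0 were in saline groups (2 male, 1 intact female and 1 ovariectomized estradiol). Ntf3 and the cortical sum had an r of 0.426 and a rho of 0.400 (permutation p = 0.00649 and 0.0108, adjusted 0.0155 and 0.0281), and r without the 2 farthest libraries was 0.387. In the comparisons of sex, estradiol and surgery the Ntf3 differences ran from -0.38 to 0.59, each with an interval across 0, and females minus males after cocaine was 0.30 with and 0.45 without the library labelled male cocaine 69.

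Ntf5 (neurotrophin-4) is not a member but shows the scale, and was listed at 0 in 33 libraries.

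Ntrk2 had by far the highest values of the members, with a median of 215 TPM and a range of 42.4 to 293. In the order of TPM within a library, Ntrk2 lay above Ntrk3, and Ntrk3 above Ngfr and Bdnf, in 40 of 40 libraries. Ngfr lay above Bdnf in 25 of 40, and Bdnf above Ntf3 in 39 of 40. The ratio of Ntrk2 to Ntrk3 had a median of 4.08 and ran from 2.51 to 7.28.

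With estradiol, Ntrk2 was at 198, 203, 224, 233 and 245 TPM after saline. After cocaine it was at 42.4, 50.3, 168, 196 and 205 TPM. The 2 lowest values come from libraries 134 and 126, both among the 4 with high ribosomal protein shares, and 4 of the 5 cocaine values lay below every saline value. The means were 132 ± 79.7 and 221 ± 19.8 TPM (SD, n = 5 each), and the log2 difference was -1.03 ± 0.38 (SE, interval -1.79 to -0.26, unadjusted p = 0.00970, adjusted p = 0.0946, limma).

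Ntrk3 had a median of 50.6 TPM over all libraries. With estradiol it was at 36.9, 38.9, 45.2, 58.0 and 58.3 TPM after saline and at 12.7, 15.1, 28.2, 44.4 and 47.3 TPM after cocaine, where libraries 134 and 126 were again lowest. Its log2 difference was -0.84 ± 0.33 (interval -1.50 to -0.18, unadjusted p = 0.0140, adjusted p = 0.0946, limma). In the same comparison 41.7% of all tested genes had an unadjusted p under 0.05, 39.5% in the lower and 2.18% in the higher direction, and the median of all genes was -0.56. Relative to that median Ntrk2 differed by -0.47 and Ntrk3 by -0.28.

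Without the 4 libraries with high ribosomal shares, the Ntrk2 difference was -0.22 (unadjusted p = 0.305, limma) and the Ntrk3 difference -0.26 (unadjusted p = 0.280, limma). With the ribosomal share as a covariate they were -0.18 and -0.19. Scaling libraries to the same median gave -0.39 (unadjusted p = 0.0242, limma) for Ntrk2 and -0.21 (unadjusted p = 0.169, limma) for Ntrk3. Leaving out 1 library moved Ntrk2 between -1.26 (without estradiol cocaine 136, adjusted p = 0.0248, limma) and -0.69 (without 134, unadjusted p = 0.0687, limma). It moved Ntrk3 between -1.06 (without 140, adjusted p = 0.0379, limma) and -0.59 (without 134, unadjusted p = 0.0791, limma).

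With placebo, Ntrk2 was at 60.4, 131, 179, 209 and 211 TPM after saline and at 156, 164, 168, 213 and 217 TPM after cocaine, where 60.4 is library 137. Ntrk3 was at 17.7 (library 137), 37.7, 41.7, 42.0 and 50.9 TPM after saline and at 32.3, 34.7, 38.2, 47.5 and 68.5 TPM after cocaine. The groups overlapped for both genes, and the cocaine differences were 0.33 ± 0.38 and 0.24 ± 0.33, where 0.823% of all genes had an unadjusted p under 0.05. The cocaine response with estradiol minus that with placebo was -1.36 ± 0.53 for Ntrk2 (unadjusted p = 0.0149) and -1.08 ± 0.46 for Ntrk3 (unadjusted p = 0.0245), each with an adjusted p of 0.156 (limma). There 31.3% of all genes had an unadjusted p under 0.05 and the median gene was at -0.71. Without the 4 libraries the values were -0.24 for Ntrk2 and -0.25 for Ntrk3, and 2 of those libraries are the estradiol cocaine ones and 1 a placebo saline one.

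Between estradiol and placebo after cocaine, Ntrk3 differed by -0.71 ± 0.33 (unadjusted p = 0.0356, adjusted p = 0.244, limma) and Ntrk2 by -0.75 ± 0.38 (unadjusted p = 0.0527, limma), with 15.7% of all genes under 0.05 and a median gene of -0.49. Without the 4 libraries they were -0.13 and 0.05. After saline, estradiol minus placebo was 0.61 ± 0.38 for Ntrk2 and 0.37 ± 0.33 for Ntrk3, both with intervals across 0, and 2.48% of all genes were under 0.05.

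In intact females Ntrk2 was at 147, 220, 239, 247 and 279 TPM after saline and at 236, 242, 252, 253 and 257 TPM after cocaine, the narrowest group at 248 ± 8.96 TPM. Ntrk3 was at 42.2, 66.0, 67.1, 72.4 and 73.3 TPM after saline and at 50.4, 57.2, 61.0, 63.0 and 65.9 TPM after cocaine. The cocaine differences were 0.16 ± 0.38 (interval -0.60 to 0.92) and -0.09 ± 0.33 (interval -0.75 to 0.57). In males Ntrk2 was at 121, 128, 227, 242 and 293 TPM after saline and at 59.7 (library 67), 244, 248, 257 and 265 TPM after cocaine. Ntrk3 was at 29.6, 50.9, 56.8, 62.6 and 67.0 TPM in saline males and at 20.6 (library 67), 56.4, 58.7, 66.3 and 77.7 TPM in cocaine males. The saline and cocaine groups overlapped for both genes in both sexes. The male differences were -0.00 ± 0.38 for Ntrk2 and -0.00 ± 0.33 for Ntrk3, where 1.02% of all genes had an unadjusted p under 0.05, and -0.11 and -0.10 without the library labelled male cocaine 69. Without the 4 libraries, which takes out male cocaine 67, they were 0.41 (unadjusted p = 0.0391, adjusted p = 0.315, limma) and 0.32. In that fit 15.5% of all genes had an unadjusted p under 0.05. It keeps male saline 61, with 17.9% of its TPM in ribosomal protein genes. Leaving out male saline 61 alone gave -0.17 for Ntrk2 and -0.20 for Ntrk3. With the ribosomal share as a covariate they were 0.03 (unadjusted p = 0.876, limma) and 0.02. Scaling libraries to the same median gave 0.04 and 0.03. Females minus males was 0.22 ± 0.38 and 0.38 ± 0.38 for Ntrk2 after saline and cocaine, and 0.29 ± 0.33 and 0.21 ± 0.33 for Ntrk3, all with intervals across 0. Without the library labelled male cocaine 69 the cocaine values were 0.49 for Ntrk2 and 0.30 for Ntrk3.

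Both Trk receptors had lower means in ovariectomized placebo mice than in intact females. After saline Ntrk3 differed by -0.80 ± 0.33 (interval -1.46 to -0.14, unadjusted p = 0.0187, adjusted p = 0.247, limma), with 4 of 5 ovariectomized values below every intact one. Ntrk2 differed by -0.62 ± 0.38 (unadjusted p = 0.110, limma). In this comparison 19.3% of all genes had an unadjusted p under 0.05, 16.8% in the lower direction, the median gene was at -0.37, and relative to it Ntrk3 was at -0.43. Leaving out placebo saline 137 gave -0.55 (unadjusted p = 0.0999, limma) for Ntrk3. After cocaine every Ntrk2 value of the placebo group lay below every intact female value, and 1044 of the 15196 tested genes were separated in that direction. The difference was -0.44 ± 0.38 (unadjusted p = 0.246, limma), with 5.63% of all genes under 0.05 and a median gene of -0.24. Fitted on those 10 libraries alone it was -0.44 with an adjusted p of 0.0433 (limma), and 10% of all genes passed that threshold there. With libraries scaled to the same median it was -0.13 (unadjusted p = 0.432, limma), and with the ribosomal share as a covariate -0.09 (unadjusted p = 0.580, limma).

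Ntrk2 and Ntrk3 moved with the general level of genes in a library. Since the 4 libraries stand apart, the relation is given over the other 36. There Ntrk2 had an r of 0.853 with the median tested gene and of -0.834 with the ribosomal protein share, and Ntrk3 of 0.812 and -0.694. Ntrk2 and the sum of 10 astrocyte genes, among them Aqp4, Gja1 and Slc1a3, had an r of 0.788 over these 36 libraries, and 0.455 once each library's median gene was taken off both. For Ntrk3 the same pair was 0.244 and -0.611. The part of astrocyte content in the Ntrk2 differences was not tested. The astrocyte sum was 336 to 2051 TPM with estradiol and cocaine and 1820 to 2237 TPM with estradiol and saline.

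**Figure D3:**
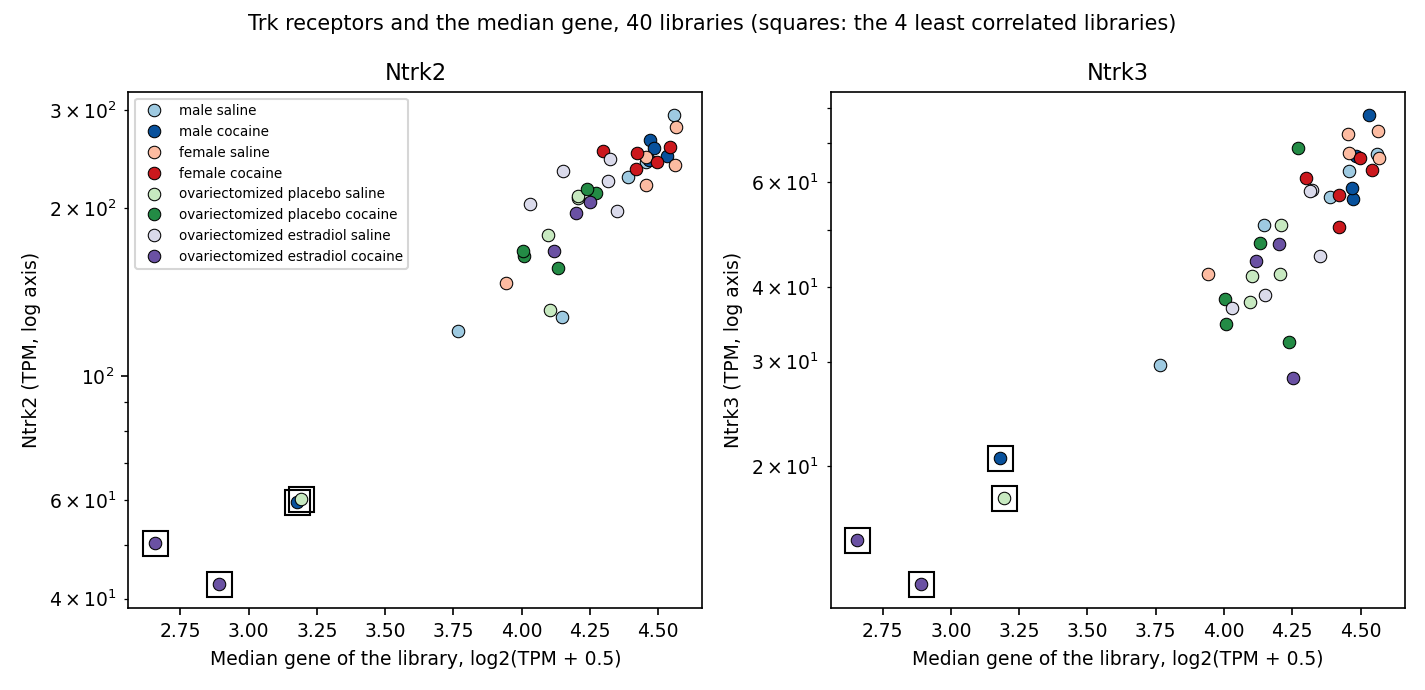
Ntrk2 (left) and Ntrk3 (right), in TPM on log vertical axes, against the median tested gene of each library on the log2(TPM + 0.5) scale, with 1 point per library coloured by group and squares around the 4 libraries with the lowest correlation to the rest. The squared libraries sit lowest on both axes, and the other 36 rise together (r = 0.853 and 0.812).

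Ngfr had a median of 2.29 TPM and ran from 0.370 to 18.4 TPM, with most libraries near the bottom of that range. After cocaine the intact females held 1.89, 3.99, 4.58, 5.32 and 11.9 TPM. The males after cocaine held 0.370, 1.21, 1.27, 1.31 and 5.96 TPM, and 5.96 TPM belongs to the library labelled male cocaine 69. Apart from that library, every male value lay below every female one. How many tested genes were separated in this way without it was not counted, so the separation cannot be taken as particular to Ngfr. With that library kept, Ngfr overlapped between the sexes. In that setting 41 tested genes had every female value above every male one, and 13 had every female value below. The lowest male value, 0.370 TPM, belongs to male cocaine 67, a library with a high ribosomal share. Females exceeded males by 1.40 ± 0.55 on the log2 scale (interval 0.28 to 2.52, unadjusted p = 0.0158, adjusted p = 0.928, limma). Of all tested genes 1.36% had an unadjusted p under 0.05 here, 1.03% in the higher direction. Without the library labelled male cocaine 69 the difference was 1.82 (unadjusted p = 0.00231, limma), without female cocaine 79 it was 1.09 (unadjusted p = 0.0669, limma), and without the 4 libraries with high ribosomal shares, 1 of them male cocaine 67, it was 1.10 (unadjusted p = 0.0655, limma).

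After saline the intact females held 2.13, 2.37, 3.52, 5.37 and 7.20 TPM of Ngfr and the males 1.52, 1.71, 1.88, 2.56 and 6.09 TPM. These groups overlapped, with a difference of 0.54 ± 0.55 (interval -0.59 to 1.66), where 1.41% of all genes had an unadjusted p under 0.05. Cocaine minus saline was 0.30 ± 0.55 in intact females and -0.56 ± 0.55 in males, and -0.98 (unadjusted p = 0.0861, limma) in males without the library labelled male cocaine 69. The cocaine response of females minus that of males was 0.86 ± 0.78 (interval -0.72 to 2.45), and 1.29 (unadjusted p = 0.101, limma) without that library, so the gap between the sexes after cocaine was not shown to differ from that after saline.

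In ovariectomized mice the high Ngfr values came from few libraries. With placebo Ngfr was at 1.73, 1.84, 1.87, 2.24 and 2.31 TPM after saline and at 1.57, 1.65, 2.28, 3.10 and 12.6 TPM after cocaine. With estradiol it was at 1.48, 1.69, 2.47, 10.9 and 18.4 TPM after saline and at 0.735, 1.39, 2.41, 4.84 and 4.87 TPM after cocaine. Estradiol minus placebo after saline was 0.97 ± 0.55 (interval -0.15 to 2.09, unadjusted p = 0.0869, limma), and 0.49 without library 122, the one at 18.4 TPM. Cocaine minus saline was 0.52 ± 0.55 with placebo and -0.77 ± 0.55 with estradiol, and the response with estradiol minus that with placebo was -1.29 ± 0.78 (interval -2.88 to 0.30, unadjusted p = 0.108, limma). Ovariectomized placebo minus intact females was -0.77 ± 0.55 after saline and -0.55 ± 0.55 after cocaine.

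Over 40 libraries Ngfr and the sum of 6 cholinergic neuron genes (Chat, Slc5a7, Slc18a3, Lhx8, Gbx2 and Isl1) had an r of 0.637 and a rho of 0.616 (permutation p = 5e-05 and 6e-05, adjusted 0.000183 and 0.000367). The r was 0.626 without the 2 farthest libraries, 0.702 in intact and 0.595 in ovariectomized mice, and 0.607 once each library's median gene was taken off both. The relation was not particular to this list. Ngfr and the oligodendrocyte precursor list had an r of 0.504 and a rho of 0.529 (permutation, adjusted p = 0.00301 and 0.00244). With the oligodendrocyte list these were 0.319 and 0.467 (permutation, adjusted p = 0.0914 and 0.00785). Chat, the enzyme that makes acetylcholine, was at 28.6 and 15.0 TPM in the 2 estradiol saline libraries with the highest Ngfr and at 14.2 to 17.1 TPM in the other 3. In the placebo cocaine library at 12.6 TPM of Ngfr, Chat was at 22.2 TPM, against 7.95 to 14.5 TPM in the other 4. After cocaine the cholinergic sum was 51.3 to 140 TPM in intact females and 27.4 to 103 TPM in males, and its part in the Ngfr difference was not tested.

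**Figure D4:**
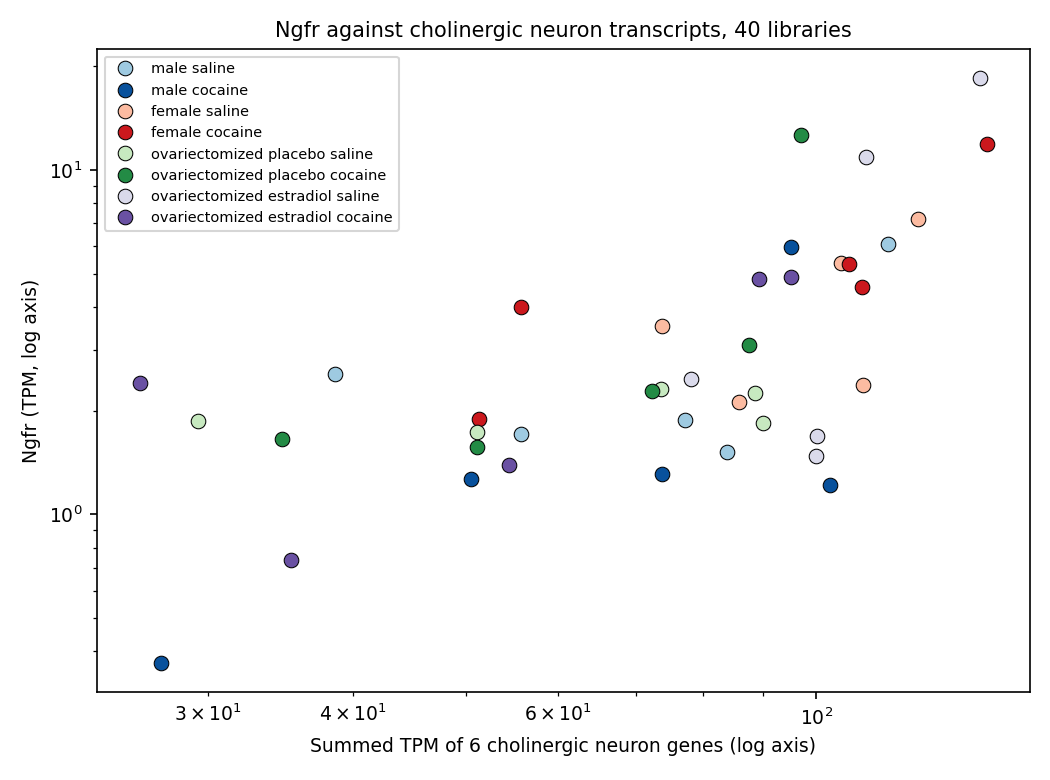
Ngfr (vertical log axis, TPM) against the summed TPM of 6 cholinergic neuron genes (horizontal log axis), with 1 point per library coloured by group. The libraries with Ngfr at 10.9 to 18.4 TPM sit toward the right, and the lowest Ngfr value, 0.370 TPM, sits at a sum of 27.4 TPM (r = 0.637 on the log2 scale).

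The genes most like each member were ranked by Pearson's r over the 40 libraries on log2 values less the library median, as a description. For Bdnf these were Nrn1 (r = 0.90), Rxfp1 (0.90), Ptpn3 (0.87), Gucy2g (0.87) and Fam19a1 (0.87), of which Nrn1 is in the cortical list, and Slc17a7 ranked 57 with 0.78. For Ntf3 they were Hopx (0.78), Atf4 (0.74), Stpg1 (0.73), C330005M16Rik (0.73) and Clec2l (0.71). For Ntrk2 they were Cmtm4 (0.91), Dnajc5 (0.90), Crkl (0.90), Paqr8 (0.89) and 2410066E13Rik (0.89), and Crkl, an adaptor protein, is in the list of Trk adaptors and kinases. For Ntrk3 they were Sik3 (0.83), Asic1 (0.81), Adar (0.79), Pdxk (0.79) and Srgap1 (0.79). For Ngfr they were 4921525O09Rik (0.83), Elfn1 (0.82), Vamp1 (0.79), Htr7 (0.76) and Smyd1 (0.76). Chat ranked 77 with Ngfr (0.63). Among the members themselves Bdnf and Ntf3 had an r of 0.51, Bdnf and Ntrk3 of -0.50, and Ntrk2 and Ntrk3 of 0.32.

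**Figure D5:**
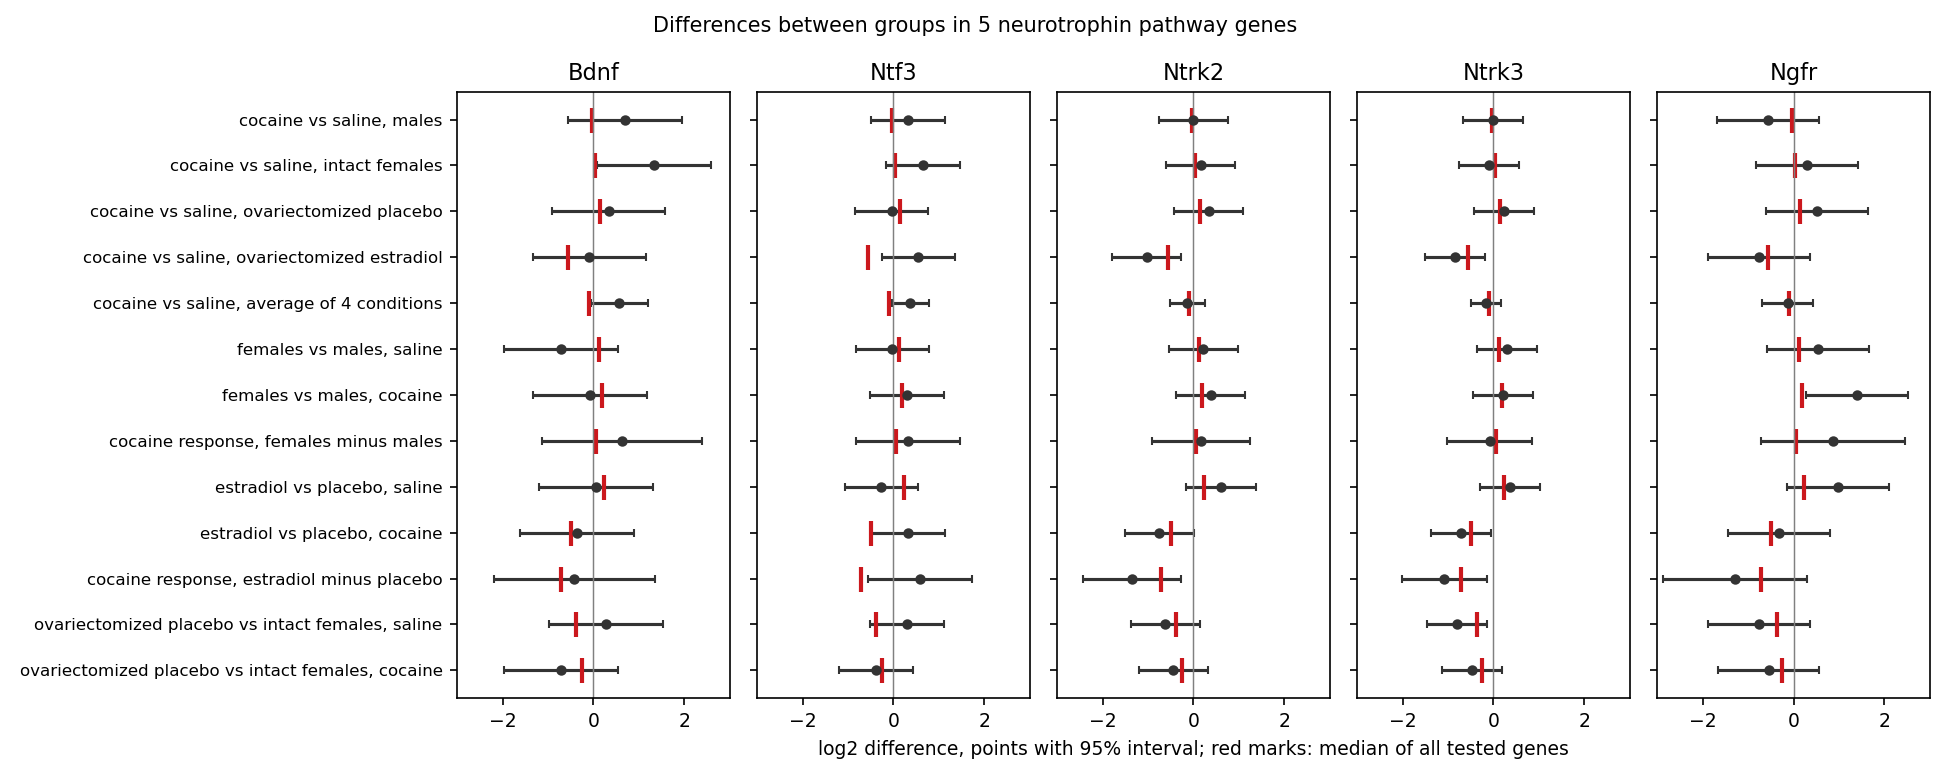
Log2 differences (horizontal axes) of the 5 members in the 13 comparisons (rows), with points for the limma estimate and bars for the 95% interval. Red marks give the median of all 15196 tested genes. In the estradiol cocaine comparison Ntrk2 and Ntrk3 lie at -1.03 and -0.84, on the same side as the median gene at -0.56, and the Bdnf interval in intact females runs from 0.08 to 2.58.

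The wider pathway was followed in 85 other genes, of which 83 passed the filter. They are ligands and processing enzymes, receptors and co-receptors, Trk adaptors and kinases, p75 adaptors and effectors, regulators of Bdnf transcription, and genes that respond to TrkB. In each comparison and in the test over 8 groups 0 of the 83 passed the adjusted threshold. With estradiol, cocaine minus saline had an unadjusted p under 0.05 for 35 lower and 1 higher of the 83, where 39.5% of all genes were lower and 2.18% higher. The pathway median was -0.63 beside -0.56 for all genes. The cocaine group holds libraries 126 and 134, with 31.6% and 23.1% of their TPM in ribosomal protein genes. Without the 4 libraries with high ribosomal shares, an alternative for the lists chosen after seeing the data, 0 of the 83 were lower and 4 higher, with a median of 0.00 beside -0.04 for all genes. There 2.17% of all genes had an unadjusted p under 0.05, counting both directions, and the cocaine group lacked libraries 126 and 134. In all libraries 18 of the 33 Trk adaptors and kinases were lower, with a median of -0.72. Without the 4 libraries 0 were lower and the median was -0.06. Of the 9 TrkB response genes 1 was lower in all libraries, with a median of -0.04, and the 4 higher genes without the 4 libraries (Arc, Egr2, Fos and Vgf, named after their values were seen) were all in this list, whose median was then 0.60. The difference between these lists was not tested, and the 4 genes, picked from their values, are no test of a response to cocaine or TrkB. The smallest p-values in all libraries were those of Mapk9, which encodes the kinase JNK2 (-1.05 ± 0.35, unadjusted p = 0.00502, limma), and Camk4, a calcium-dependent kinase (-1.05 ± 0.37, unadjusted p = 0.00632, limma), and without the 4 libraries they differed by -0.31 and -0.56 (unadjusted p = 0.177 and 0.0992, limma). Mapk9 was at 67.8 ± 39.2 TPM after cocaine and 118 ± 11.5 TPM after saline (SD, n = 5 each).

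In intact females and in males 0 of the 83 genes had an unadjusted p under 0.05 for cocaine. The smallest p-value in females was that of Pcsk1, a prohormone convertase (0.67 ± 0.45). Pathway medians there were 0.04 and 0.00, beside 0.03 and -0.03 for all genes. With placebo 1 of 83 was higher at an unadjusted p under 0.05, beside 0.5% of all genes. It was the immediate-early gene Fos (1.28 ± 0.58, unadjusted p = 0.0339, adjusted p = 0.996, limma), which was at 18.0 ± 11.0 TPM after cocaine and 8.29 ± 8.65 TPM after saline. Without placebo saline 137 the Fos difference was 1.18 (unadjusted p = 0.0641, limma). For ovariectomized placebo against intact females after saline, 16 of 83 were lower at an unadjusted p under 0.05, beside 16.8% of all genes, and the median was -0.48 beside -0.37. The placebo saline group holds library 137, with 19.5% of its TPM in ribosomal protein genes, and without it 3 of 83 were lower (Npas4, Rasgrf1 and Sorcs3), beside 4.42% of all genes, with a median of -0.22 beside -0.19. The smallest p-values in all libraries were those of Rasgrf1, a Ras exchange factor (-1.06 ± 0.36, unadjusted p = 0.00543, limma), and Sorcs3, a sortilin-family receptor (-1.04 ± 0.36, unadjusted p = 0.00622, limma). Between the sexes after cocaine 1 of 83 was higher in females, beside 1.03% of all genes. It was Frs3, an adaptor of Trk receptors (0.65 ± 0.30, unadjusted p = 0.0336, limma), at 0.74 (unadjusted p = 0.0239, limma) without the library labelled male cocaine 69 and at 0.50 (unadjusted p = 0.0725, limma) without the 4 libraries. After saline 0 of 83 had an unadjusted p under 0.05.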

How the data were processed

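RNA from 40 accumbens punches, 1 library per mouse, was analysed from 1 deposited table. Libraries were made with an AmpliSeq kit and run in 1 lane, per the labels' protocols. The authors' values are called FPKM in the table's name, but every column sums to 1000000, so they are called TPM here. That total alone does not show whether gene length was used. Depth is unknown, so no counting interval could be given. The submitters' processing notes list mm10, limma, DESeq2, Cuffdiff 2.2.0 and Cufflinks 2.2.0, TopHat2 2.0.9 and Bowtie2 2.1.0.0. The maker of the table among them is not given in the sources used here. A targeted kit does not cover transcripts evenly, which could affect comparisons of level between genes.

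Of 23349 entries 27 named by dates were left out. The 15196 genes that reached 1 TPM in 5 or more libraries were fitted as log2(TPM + 0.5) in limma 3.58.1 (R 4.3.3), with trend and robust options, a mean for each of 8 groups, and Benjamini-Hochberg adjustment over all tested genes at 0.05. The fit was tested on simulated data. Correlations used Python 3.11.15 and scipy 1.17.1 with 100000 resamples. Errors on log2 differences are SE, and unadjusted p-values are two-sided.

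Members, marker lists and pathway lists were chosen with earlier results of these data known. Members are named in every comparison, and other pathway genes when past the threshold, or else the 2 with the smallest p. A few genes that this rule names are not reported here. Alternatives covered the pseudocount, the filter, median scaling, array weights, the groups in the fit, 3 covariates, the 4 least correlated libraries and single libraries. Same-number pairing does not apply, since animal numbers are unique.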

Additional observations from a re-analysis of the deposited data

Results flagged for a closer look

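In 6 of 40 sets of 5 mice (5 genes in 8 groups) 1 library lay far from the others by Dixon's criterion on TPM without logs. For independent sets of normally distributed values chance gives about 1 in 20, or 2 of 40. These sets share libraries and TPM need not be normally distributed, so 6 cannot be read as more than chance gives. Bdnf was at 7.55 TPM in ovariectomized estradiol cocaine 136, the highest of its group, against 0.393 to 1.57 TPM in the others. Ntrk2 was at 59.7 TPM in male cocaine 67, the lowest, against 244 to 265 TPM. Ntrk3 was at 42.2 TPM in female saline 64, the lowest, against 66.0 to 73.3 TPM. Ngfr was highest in male saline 63 at 6.09 TPM, against 1.52 to 2.56 TPM. It was highest in the library labelled male cocaine 69 at 5.96 TPM, against 0.370 to 1.31 TPM. It was highest in ovariectomized placebo cocaine 125 at 12.6 TPM, against 1.57 to 3.10 TPM.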

How the results depend on the processing

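The number of members called was 0 of 5 in each comparison, and moved in these cases. For cocaine with estradiol, leaving out 1 library gave 0 to 2 calls (Ntrk2 and Ntrk3, without estradiol cocaine 128, 136 or 140, where 23.8%, 40.2% and 38.8% of all tested genes were called). For any difference among the 8 groups it gave 0 to 2 (Ntrk2 and Ntrk3, without male cocaine 67, with 25.7% of all genes called), and array weights gave 4 (all but Ngfr, with 60.1% of all genes). Array weights also gave 2 calls (Ntrk2 and Ntrk3) for ovariectomized placebo against intact females after saline (44.8% of all genes) and 4 (all but Ngfr) after cocaine (42.3% of all genes), where a fit on the 10 libraries compared gave 1 (Ntrk2, with 10% of all genes). The cause was not tested. The Ntrk2 difference in males turned from -0.00 to 0.41 without the 4 least correlated libraries. Over the 65 differences and 10 other settings, 59 of 650 values changed sign, and besides that one each had an unadjusted p of at least 0.05 both times. They were 20 under array weights, 15 without the 4 libraries, 8 under median scaling, 8 with the ribosomal covariate, 7 with the cortical covariate and 1 with a pseudocount of 0.1. Leaving out single libraries changed 43 of 900 signs, in 18 differences. No paired analysis was possible because animal numbers are not shared between groups. TPM carries no depth, so low values of Ntf3, Bdnf and Ngfr have no counting error here.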
